A study of Homo sapiens with 3 samples.

Results

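The Rag GTPase genes RRAGA, RRAGB, RRAGC and RRAGD were examined for binding of HA-tagged TFE3, as mapped by ChIP-seq, the sequencing of DNA precipitated with a chromatin protein. The 4 genes were taken by name, and every ChIP summit inside a gene span or within 5 kb of either end was kept. This gave 8 of the 62287 summits used in replicate 1 and 9 of the 72647 used in replicate 2. They formed 7 of the 47396 pairs, a pair being a summit of each library that were each other's nearest and lay at most 100 bp apart.

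The cells were HK-2, an established line from human kidney proximal tubule, carrying an HA-TFE3 gene that is expressed in a doxycycline-dependent manner. The labels give 3 samples, namely 2 HA-TFE3 ChIP replicates and 1 library of input DNA, all from HA-TFE3-inducible HK-2 cells. Culture was with or without doxycycline at 0.2 µg/ml for 24 h, and the labels do not say which libraries received it. TFE3 was therefore mapped as a tagged protein from an added gene, and neither the amount of it nor the cells' own TFE3 was measured. The input library was not analysed here, so no background signal stands beside the summits. The labels do not name separate cultures for the replicates, and their spread may therefore be technical. There was 1 ChIP group, so no difference between conditions could be tested and no p-value is given.

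Rag GTPases are small G proteins on the lysosome that tell the kinase complex mTORC1 that amino acids are present. They work as a heterodimer of RagA or RagB with RagC or RagD, held on the lysosomal membrane by the Ragulator complex. The RagC or RagD side, in its GDP-bound form, also binds TFE3 and its relative TFEB and brings them to mTORC1, whose phosphorylation keeps them in the cytoplasm. Genes of this machinery, RRAGD among them, are known as targets of the MiT/TFE factors, which recognise E-box sequences with the core CACGTG.

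HA-TFE3 summits lay at the start of RRAGA, RRAGB and RRAGC in both libraries, and at the start of RRAGD in neither. The share of all genes with a summit at the start was not determined, so this is not shown to be particular to the Rag genes. RRAGA and RRAGB each had 1 pair, at the start of the gene. RRAGC had 2 pairs, 1 at the start and 1 just inside the gene. RRAGD had 3 pairs, all inside the gene, the nearest 11.0 kb from its start. The gene spans are known only to the nearest kb on hg19, so "at the start" means within 1 kb of the span's first base, and no side is given for such summits. Whether a summit falls in an exon, an intron or a UTR was not determined.

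The RefSeq promoter table, on GRCh38.p14, had an entry for 2 of the 4 genes, RRAGB and RRAGC. Their 250 bases before the annotated start are shown because both genes had a summit pair at the start and both stretches hold the E-box core. Capitals mark matches to CACGTG, to TCACGTG and to TGACTCA on either strand. TCACGTG contains CACGTG, and TGACTCA is the letter string of the AP-1 family site. The RRAGB stretch is chrX:55717499-55717748 on the plus strand, and the RRAGC stretch is chr1:38859773-38860022 on the minus strand.
RRAGB: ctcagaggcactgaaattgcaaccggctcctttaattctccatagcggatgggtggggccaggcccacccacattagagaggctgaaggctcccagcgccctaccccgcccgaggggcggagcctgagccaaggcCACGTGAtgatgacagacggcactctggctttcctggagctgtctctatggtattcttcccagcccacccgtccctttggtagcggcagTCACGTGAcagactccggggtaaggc
RRAGC: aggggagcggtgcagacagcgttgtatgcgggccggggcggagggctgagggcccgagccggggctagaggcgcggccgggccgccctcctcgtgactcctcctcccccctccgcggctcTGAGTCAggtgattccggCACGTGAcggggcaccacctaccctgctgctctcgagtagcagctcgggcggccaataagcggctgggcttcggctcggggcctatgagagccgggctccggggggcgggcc

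The RRAGB promoter held CACGTG beginning 115 and 25 bases before the start and again at base 8 after it. All 3 matches were flanked so as to read TCACGTG on at least one strand, and the middle one did so on both. The site after the start is given with 8 bases on each side, the core in capitals.
RRAGB, site after the start: cagatgccCACGTGatcctggc

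RRAGC held 1 CACGTG, beginning 112 bases before its start, which reads TCACGTG on the strand opposite to the printed one. A TGACTCA match on that opposite strand began 130 bases before the start. Neither TCATGTG nor CATGTG, the 2 other strings searched, was found in either window of 300 bases. Of the 35116 promoter windows in the table, 7.26% held CACGTG, 3.71% TCACGTG, 2.92% TCATGTG, 11.1% CATGTG and 4.95% TGACTCA. At least 3 CACGTG matches were found in 33 windows, or 0.094%, a count looked up after the RRAGB matches were seen. Many genes have several overlapping windows in this table. The summits are on hg19 and the letters on GRCh38.p14, so the summit bases were not placed within the printed stretches, and a match is a run of letters, not a shown binding site.

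Each summit carries the authors' own score, and no source used here gives its scale. It is read below as a percentile, the rank of the summit within the list of its own library, where 100 is the highest. Bases are on hg19. The values of single summits are given in the order RagA and RagB, whose GTP-bound state marks the active heterodimer, and then RagC and RagD.

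RRAGA encodes RagA and is a gene without introns, on chromosome 9 with a span of 2 kb from base 19049000 to 19051000 on the plus strand. Its summit was at base 19049387 in replicate 1, with a score of 22.7 (percentile 87.9), and at base 19049374 in replicate 2, with a score of 23.7 (percentile 87.6). The 2 summits lay 13 bp apart, and their percentiles differed by 0.327 points. This was the closest agreement in rank of the 7 pairs, and 97.7% of all pairs differed by at least as much. The mean percentile was 87.8 ± 0.23 (SD, n = 2), a value that 14.6% of all pairs reached. The pair stood at rank 239 of the 1825 pairs on chromosome 9. In RefSeq the genes SAXO1 and HAUS6 lie within 5 kb of RRAGA, so the pair cannot be given to RRAGA alone by position.

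RRAGB encodes RagB, the close relative of RagA, and spans bases 55744000 to 55786000 of chromosome X on the plus strand. Its summit was at base 55744056 in replicate 1, with a score of 22.4 (percentile 87.5), and at base 55744108 in replicate 2, with a score of 20.9 (percentile 84.4). The summits were 52 bp apart, the widest of the 7 pairs, against a median of 26 bp over all pairs. With a limit of 50 bp they no longer counted as a pair. The mean percentile was 85.9 ± 2.19 (SD, n = 2), at rank 113 of the 1011 pairs on chromosome X. No other summit of either library lay in the 42 kb span or its flanks. RefSeq lists no other gene within 5 kb of RRAGB.

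RRAGC encodes RagC and spans bases 39303000 to 39326000 of chromosome 1 on the minus strand, so its start is the higher coordinate. The summit at the start was at base 39325583 in replicate 1, with a score of 16.9 (percentile 78.5), and at base 39325615 in replicate 2, with a score of 29.6 (percentile 92.4). The replicate 2 score was the highest of the Rag gene summits in that library. The replicate 1 score was below those of RRAGA, RRAGB and the highest RRAGD summit in its library. The mean percentile was 85.5 ± 9.82 (SD, n = 2), and the difference of 13.9 points between libraries was near the median difference of 11.7 over all pairs.

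A further RRAGC pair lay inside the gene, 1.25 kb from the start. It was at base 39324747 in replicate 1, with a score of 8.55 (percentile 50.1), and at base 39324754 in replicate 2, with a score of 16.4 (percentile 76.4). The replicate 1 score equals the median of that whole list, a value carried by 1113 summits. The 2 libraries thus placed this summit within 7 bp of each other but 26.2 percentile points apart, a difference that 21.4% of all pairs reached. The RRAGC summits were 836 bp apart in replicate 1 and 861 bp apart in replicate 2. Both were ranked higher in replicate 2, unlike the other 5 pairs, which were ranked higher in replicate 1. Replicate 2 also listed a summit without a partner at base 39301085, past the 3′ end of the span, with a score of 13.6 (percentile 69.5). The genes RRAGC-DT, MYCBP and the readthrough GJA9-MYCBP lie within 5 kb of RRAGC in RefSeq, so the pair at the start is shared ground by position.

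RRAGD encodes RagD, the partner of RagA or RagB in place of RagC, and spans bases 90074000 to 90122000 of chromosome 6 on the minus strand. No summit was listed within 5 kb of its start in either library. The nearest pair on the gene side lay 11.0 kb inside, at base 90110953 in replicate 1 (score 12.9, percentile 68.8) and base 90110940 in replicate 2 (score 5.66, percentile 27.4). Its positions differed by only 13 bp but its ranks by 41.4 percentile points, the most of the 7 pairs, and 7.39% of all pairs differed by at least as much. The score of 5.66 was carried by 2051 summits of replicate 2, so its rank is coarse. Upstream of the gene the nearest summits were 20.9 kb from the start in replicate 1 (percentile 24.8) and 20.8 kb in replicate 2 (percentile 54.1). A missing summit says only that none was listed at the authors' threshold.

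The highest-ranked RRAGD pair was deep in the gene, 36.7 kb from the start. It was at base 90085283 in replicate 1, with a score of 21.2 (percentile 85.9), and at base 90085327 in replicate 2, with a score of 19.2 (percentile 81.7). Its mean percentile was 83.8 ± 3.00 (SD, n = 2), at rank 521 of the 2865 pairs on chromosome 6. The last pair, 40.1 kb from the start, was a low one, with scores of 6.67 at base 90081923 in replicate 1 (percentile 35.3) and 6.29 at base 90081924 in replicate 2 (percentile 33.7). It was also the closest in position, at 1 bp. Past the 3′ end each library listed 1 summit, at base 90070393 in replicate 1 (score 7.12, percentile 39.4) and base 90070553 in replicate 2 (score 5.66, percentile 27.4), too far apart to count as a pair. With a limit of 200 bp they did count, and RRAGD then had 4 pairs. RefSeq lists no other gene within 5 kb of RRAGD.

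**Figure D1:**
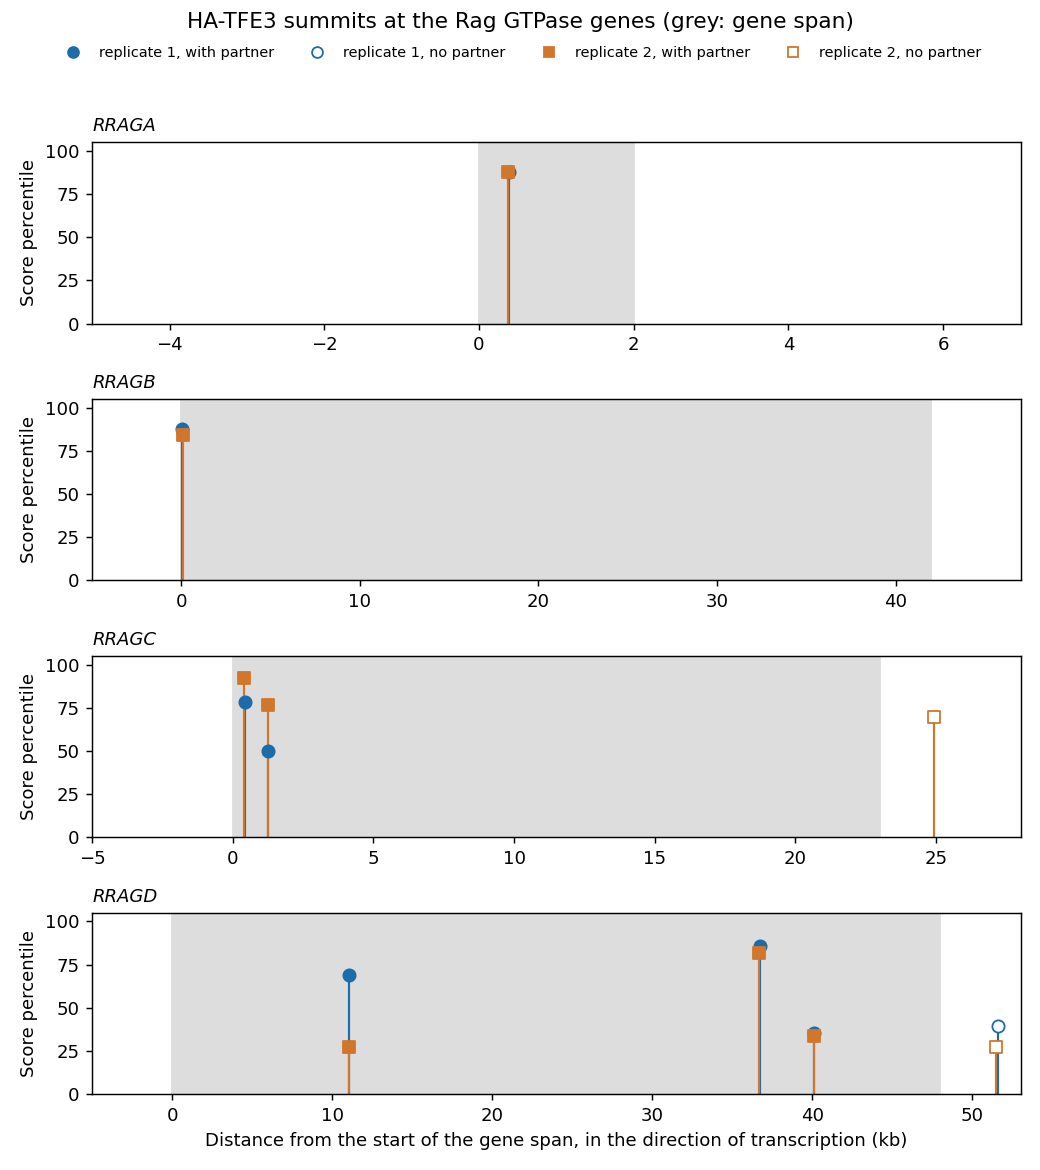
Score percentile (vertical axis, 0 to 100) of every HA-TFE3 summit against its distance in kb from the start of the gene span, read in the direction of transcription, for RRAGA, RRAGB, RRAGC and RRAGD. Blue circles are replicate 1, orange squares replicate 2, open symbols have no partner, and grey marks the gene span. RRAGA, RRAGB and RRAGC have filled symbols at the start, while the first symbols of RRAGD lie 11.0 kb inside the gene.

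The 7 pairs were compared by their place. The 3 pairs at a gene start had mean percentiles from 85.5 to 87.8, and the 4 pairs further inside a gene had 34.5 to 83.8. The RRAGC pair 1.25 kb from the start, with a mean percentile of 63.2, could fall on either side of the 1 kb limit, since the span ends are rounded. The ranges of mean percentiles did not overlap as drawn. Those of replicate 1 alone did, since the highest inner pair, at RRAGD, had 85.9 and the RRAGC start pair 78.5. Those of replicate 2 did not, with 81.7 for that RRAGD pair against a lowest start value of 84.4. The 3 and 4 pairs over 4 genes are too few for more than a description. Pairs at other genes were not split by place, so a difference of this kind is not shown to be particular to the Rag genes. The highest of the inner pairs came within the spread of the start pairs. Ordered by their highest pair, the genes ran RRAGA, RRAGB, RRAGC, RRAGD. No neighbours in this order differed beyond the spread between libraries. RRAGA exceeded RRAGB by 1.83 percentile points, against an SD of up to 2.19 within a pair. RRAGB exceeded RRAGC by 0.458 and RRAGC exceeded RRAGD by 1.70 points, both against an SD of up to 9.82.

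The Rag pairs were set beside all pairs of the series. The list of all pairs was not limited to genes or matched by place. A higher rank is therefore not shown to be particular to the Rag genes. The median percentile of the Rag pairs was 78.5 in replicate 1, against 59.1 over all pairs, and 81.7 in replicate 2, against 64.3 over all pairs. The median of the mean percentile was 83.8 at the Rag genes and 59.5 over all pairs. This median rests on 7 values, and at limits of 50, 200 and 500 bp, which drop the RRAGB pair or add a low RRAGD pair, it was 73.5. The median distance between partners was 13 bp at the Rag genes and 26 bp over all pairs. The median difference in percentile between libraries was 4.25 points at the Rag genes and 11.7 over all pairs. Neither of these medians was stable at the Rag genes. The difference in percentile was 9.07 points there at a limit of 50 bp, against 11.3 over all pairs, and 8.12 at 200 bp, against 11.8. The distance was 22.5 bp there at 200 bp, against 27 bp over all pairs.

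**Figure D2:**
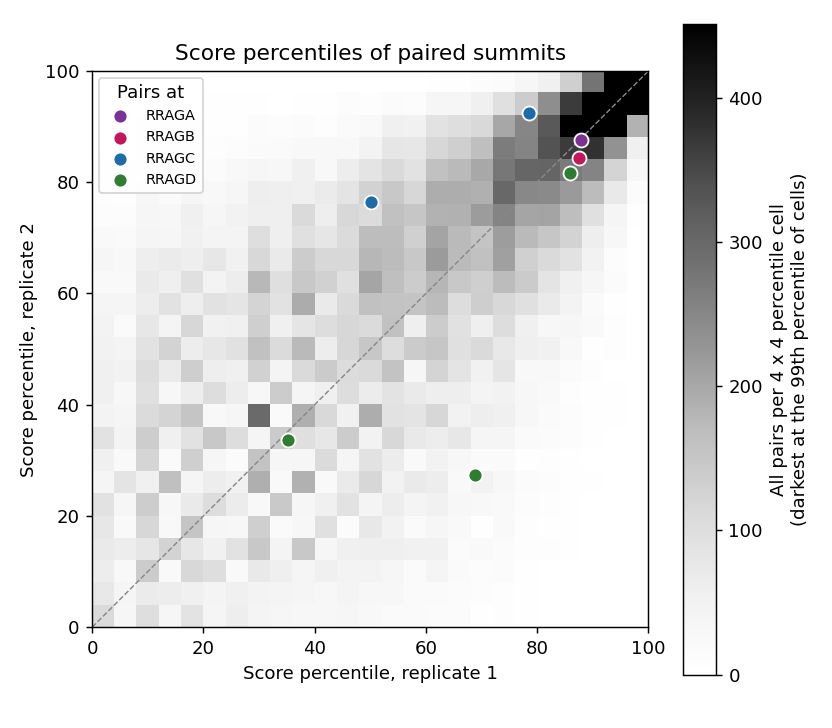
Score percentile in replicate 2 (vertical axis) against replicate 1 (horizontal axis) for the 7 Rag gene pairs (coloured points) over all 47396 pairs (grey shading, pairs per cell). The dashed line marks equal percentiles. RRAGA, RRAGB and the highest RRAGD pair sit close to the line near the top right, both RRAGC pairs lie above it, and 1 RRAGD pair lies far below it, at 68.8 in replicate 1 and 27.4 in replicate 2.

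Of the Rag gene summits, 7 of 8 in replicate 1 had a partner, or 87.5% (95% exact binomial interval 47.3 to 99.7), against 76.1% of the whole list. In replicate 2 the share was 7 of 9, or 77.8% (40.0 to 97.2), against 65.2% of the whole list. Both intervals include the share of the whole list, so no difference was detectable with so few summits. Intervals here cover counting error only.

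The density of pairs over the 155 kb of the 4 gene windows was 4.52 per 100 kb (95% exact Poisson interval 1.82 to 9.30), against 1.56 per 100 kb over chromosomes 1 to 22 and X. The interval lay above that average, which includes long stretches without genes, but no longer did with a flank of 10 kb, where the density was 3.59 per 100 kb (1.44 to 7.40). Such an interval takes pairs as independent of each other, but pairs were clustered. Windows of 52 kb over these chromosomes held 0.812 pairs on average, yet 62.6% held none and the fullest held 16. The interval may therefore be too narrow. When each list was limited to scores above its own median, 4 pairs, or 57.1%, were left at the Rag genes, against 50.1% of all pairs. The density was then 2.58 per 100 kb (0.703 to 6.61) at the Rag genes, against 0.782 over the same chromosomes. When each list was limited to its 10000 top scores, the RRAGA pair alone was left, or 14.3% of the Rag pairs, against 14.2% of all pairs. The density was then 0.645 per 100 kb (0.0163 to 3.59) at the Rag genes, against 0.221 over the same chromosomes. Under both limits on the score the interval included the average, and the shares of pairs left were near those of all pairs.

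Counted gene by gene, none of the 4 numbers was rare among windows of the same length laid end to end over the same chromosomes. At least 1 pair was found in 13.8% of 12 kb windows, the length of the RRAGA window, and in 37.4% of 52 kb windows, the length for RRAGB. At least 2 pairs, the RRAGC count, were found in 12.5% of 33 kb windows. At least 3 pairs, the RRAGD count, were found in 12.4% of 58 kb windows. The count at RRAGB was thus a common one for a window of that length. These windows were not limited to genes, and no annotation on hg19 was used to set the Rag genes beside other genes.

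**Figure D3:**
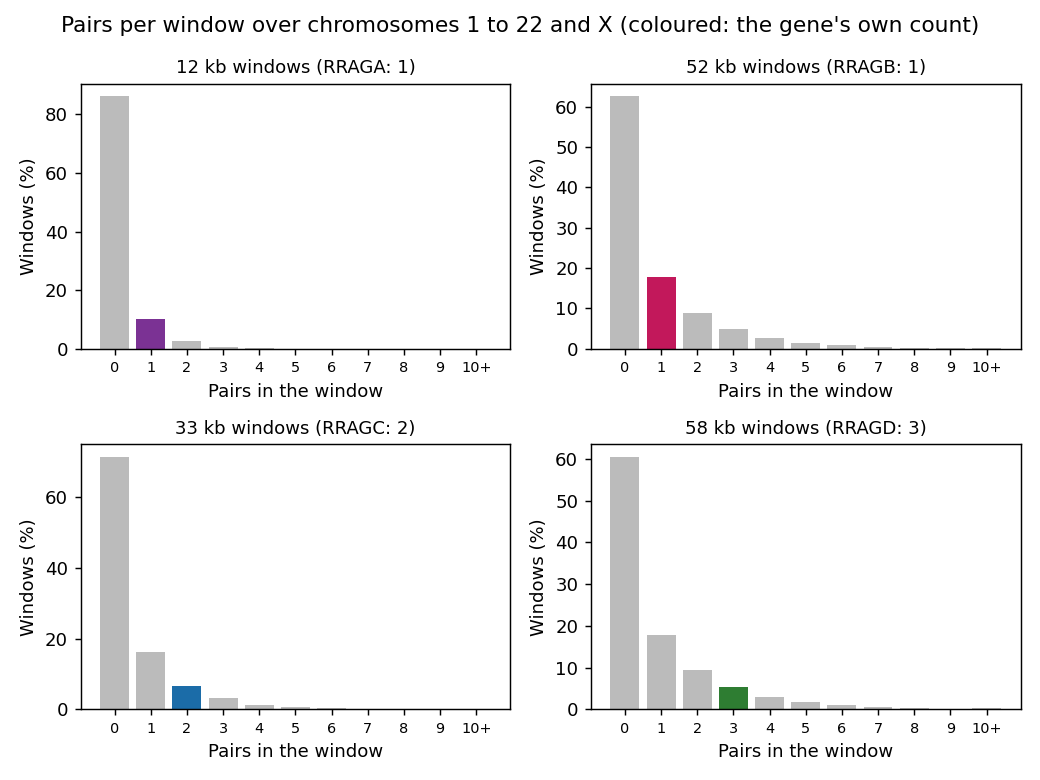
Share of windows (vertical axis, percent) by the number of pairs they hold (horizontal axis), for windows as long as those of RRAGA (12 kb), RRAGB (52 kb), RRAGC (33 kb) and RRAGD (58 kb). The coloured bar marks the number of pairs at the gene itself, which was 1, 1, 2 and 3. In each panel most windows hold no pair.

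The surroundings of the 4 genes differed. RRAGA had the highest-ranked of the 13 pairs in the 1 Mb around it, and all 12 of the others lay downstream of its start. The lead was small, since the highest of these others had a mean percentile of 85.8, against 87.8 for the RRAGA pair. The nearest summit upstream of RRAGA was 548.7 kb away in replicate 1 and 558.2 kb away in replicate 2. RRAGB had the highest-ranked of only 4 pairs in its 1 Mb, and none of the other 3 exceeded a mean percentile of 51.3. Replicate 2 alone listed a summit 6.67 kb upstream of RRAGB, just outside the window (percentile 56.1).

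RRAGC and RRAGD did not hold the highest-ranked pair of their surroundings. Of the other pairs in the 1 Mb, 4 of 20 ranked above the highest RRAGC pair and 7 of 18 above the highest RRAGD pair. The highest RRAGC pair ranked at place 5 of 22 in its 1 Mb, and 19 of the 20 others lay upstream of its start. The first of these, 13.1 kb upstream, was at base 39339122 in both libraries, with percentiles of 91.8 in replicate 1 and 93.5 in replicate 2. The highest RRAGD pair ranked at place 8 of 21 in its 1 Mb. The first pair past the 3′ end of the RRAGD window was 6.45 kb beyond it, at base 90062549 in replicate 1, with percentiles of 96.3 in replicate 1 and 97.4 in replicate 2. It ranked above every pair of the 4 Rag genes. Which gene these neighbouring pairs belong to was not determined.

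**Figure D4:**
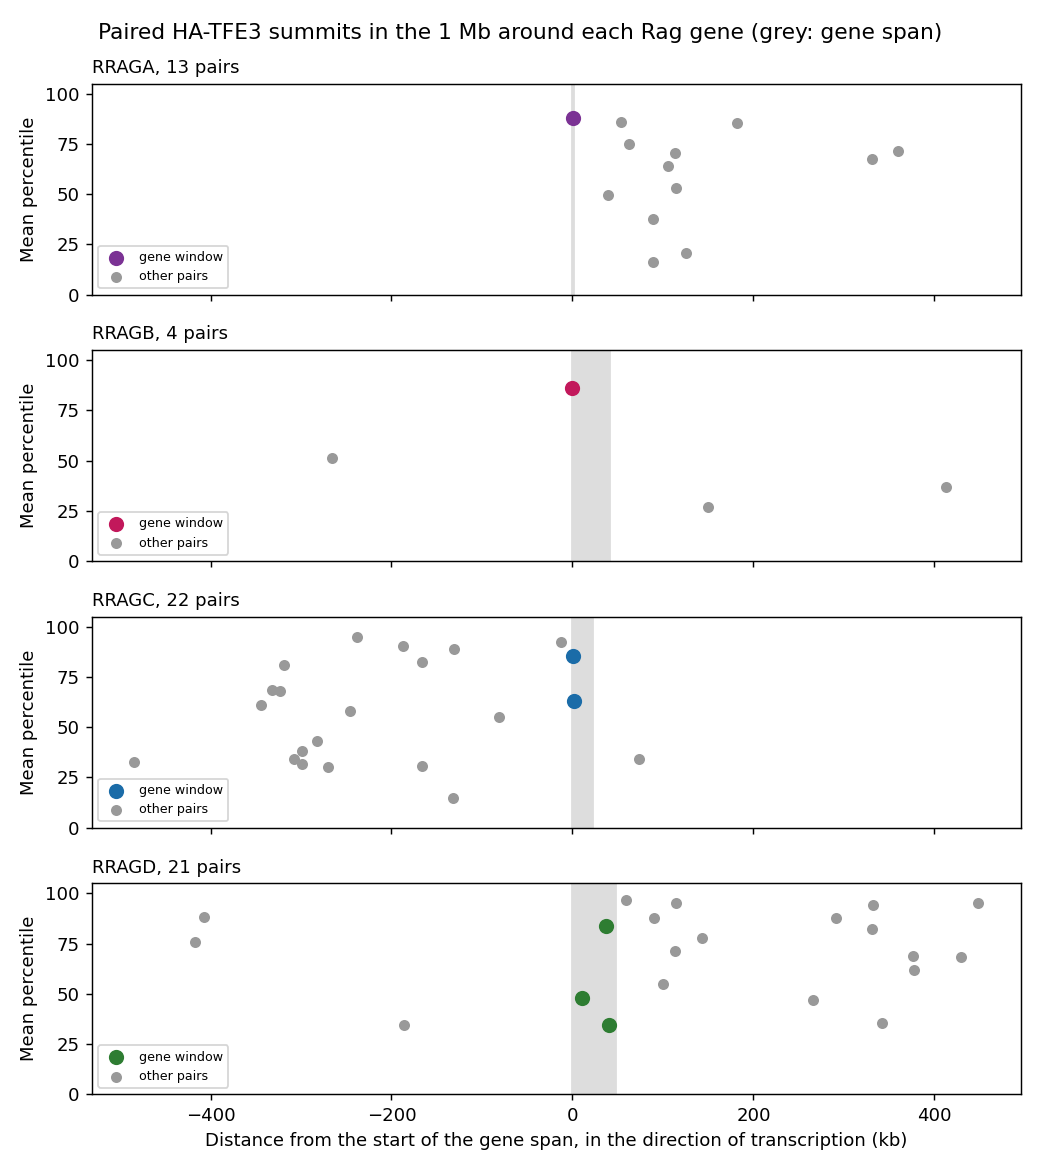
Mean score percentile of both libraries (vertical axis) for every pair in the 1 Mb around each Rag gene, against distance in kb from the start of the gene span in the direction of transcription. Coloured points are pairs in the gene window, grey points are other pairs, and the grey band is the gene span. RRAGA and RRAGB hold the highest point of their panel, whereas 4 grey points lie above the highest RRAGC point and 7 above the highest RRAGD point.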

How the data were processed

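The deposited files hold, for each HA-TFE3 ChIP library, a list of 1 bp summits, each named and scored. This deposited score is the authors' value, on a scale they do not state, and served only to rank summits within a list. Per the submitters' processing notes, the build is hg19. Aligner, peak caller, threshold and use of the input are not stated in the labels used here, and depth is unknown because the lists hold no read counts.

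Only chromosomes 1 to 22 and X entered, so 35 summits in replicate 1 and 45 in replicate 2 did not. Positions were made 1-based. Gene spans were those of the 4 genes on hg19, rounded to 1 kb. The genes, motifs and measures were chosen with earlier results of these data known. All pairs in the gene windows are named, by the rule for at most 8 pairs a gene. A list of other genes of the pathway was not analysed, since no hg19 annotation was used, nor were proteins compared. Promoter sequences and neighbouring genes are from RefSeq on GRCh38.p14. The pairing was tested on simulated data. Chromosome lengths came from GenomeInfoDb 1.38.1. Python 3.11.15, NumPy 2.4.6, pandas 2.3.3, SciPy 1.17.1 and matplotlib 3.10.9 were used. Alternatives were other pairing limits, flanks, span ends and score thresholds, moved windows and each library alone.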

Additional observations from a re-analysis of the deposited data

How the results depend on the processing

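The count of 7 pairs was 6 to 8 under other pairing limits, 7 under other flanks and shifted span ends, 4 above the median score and 1 among the 10000 highest-scoring summits. Fewer summits enter the last 2 settings. Each library alone gave 8 to 9 summits. The median percentile of 83.8 became 73.5 at limits of 50, 200 and 500 bp. Over the same 7 pairs it was 78.5 in replicate 1 and 81.7 in replicate 2. Summits without a partner did not enter these medians. The density of 4.52 per 100 kb was 3.87 at 50 bp, 5.16 at 200 and 500 bp, 6.09, 5.34 and 3.59 with flanks of 0, 2 and 10 kb, 2.58 above the median score, 0.645 among the highest-scoring summits, and 5.16 to 5.81 for each library alone. Its 95% interval included the density over all chromosomes with a flank of 10 kb and under both score limits. The share with a partner was 75.0% in replicate 1 and 66.7% in replicate 2 at 50 bp, 100% and 88.9% at 200 and 500 bp, 100% and 100% without a flank, 100% and 87.5% with 2 kb, and 80.0% and 66.7% above the median score. With 10 kb it was 70.0% in replicate 2. The share of windows with at least as many summits as RRAGA was 16.8% to 18.8% for each library alone, and for RRAGB 42.8% to 46.3%. For RRAGC it was 10.5% to 16.4% and for RRAGD 10.7% to 13.2%. These single-library shares count summits, not pairs, so the number to be reached differed from that of the pairs. RRAGC had 2 summits in replicate 1 and 3 in replicate 2, and RRAGD had 4 in each. No paired analysis was possible because there is 1 ChIP group and the results come from no test. The unknown depth limits what a missing summit can show.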
